A study of Sus scrofa with 36 samples.

Results

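PAX6, SOX1, SIX3, HES5, LHX2, NEUROG2 and NES mark neural progenitor cells, and their RNA levels are described here across porcine fibroblasts, induced pluripotent stem cell (iPSC) lines and iPSC derivatives. The 7 genes were taken by name, and the tables held all 7 among 20683 genes. Bulk RNA was sequenced from 36 libraries in 11 groups. Pig fibroblasts gave 4 libraries. Undifferentiated iPSC lines were clone 1 (labelled PiPS-EP1 minusPD c4 p11, 3 libraries), clone 2 (PiPS-EP5 minusPD minusA83 c12 p10, 4 libraries) and clone 3 (PiPS-EP5 minusPD minusA83 c18 p15, 4 libraries). All other libraries came from a single line, clone 8, with 3 in each of 7 groups: undifferentiated at day 0 after removal of the MEF feeder cells, primitive streak or mesendoderm at day 1 (medium E8A100ch3), presomitic mesoderm at day 2 (S1LDN), somite at day 3 (S2LDN), endothelial cells at day 6, beating cardiomyocytes at day 9 and neural progenitor cells at day 24. The media are named in the labels without their recipes, and the day 6, day 9 and day 24 groups carry no medium name. Every differentiated group therefore stands on 1 clone. The time in culture differed between the derivatives as well as the lineage.

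In the neural plate, SOX1 and PAX6 are early transcription factors of neuroepithelium, and SIX3 and LHX2 pattern its anterior end, the forebrain and the eye field. Neural progenitors are kept in an undifferentiated state by Notch signalling, whose target HES5 represses proneural genes, while the proneural factor NEUROG2 drives progenitors towards neurons and induces Notch ligands. NES encodes nestin, an intermediate filament protein of neural stem cells that dividing muscle, endothelial and other progenitor cells also make.

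On the Sscrofa11.1 assembly, RefSeq places PAX6 on chromosome 2 (28971565 to 29001149), SOX1 on chromosome 11 (77985771 to 77989383), SIX3 on chromosome 3 (95521330 to 95527004) and HES5 on chromosome 6 (64409110 to 64410541). LHX2 lies on chromosome 1 (264900931 to 264920888), NEUROG2 on chromosome 8 (110200681 to 110206081) and NES on chromosome 4 (93412660 to 93421899). No pair of these genes shares a chromosome. All are annotated as protein-coding, and the values below are sums over the whole gene.

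Library totals ran from 1845333 expected counts (neural replicate 3) to 69879325, with at most 9727315 in clone 8 and at least 24314241 in clones 1 to 3. The 42 within-group pairs of libraries included no identical pair, and the most alike still differed beyond sampling noise (chi-square over its degrees of freedom 3.43). Whether replicates were grown separately is not stated in the labels, and the spread that enters each p-value may be technical. In bulk RNA, fewer cells of a type and less RNA per cell cannot be told apart.

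Before the results, 2 libraries went against their labels. Over 12961 genes, the library labelled neural replicate 1 had a Spearman correlation of 0.988 and 0.986 with cardiomyocyte replicates 1 and 3, and of 0.637 and 0.653 with neural replicates 2 and 3. The library labelled cardiomyocyte replicate 2 had a correlation of 0.978 and 0.972 with neural replicates 2 and 3, and of 0.673 and 0.658 with cardiomyocyte replicates 1 and 3. The summed level of 15 cardiomyocyte markers was 22693, 97.3 and 20764 TPM (transcript abundance scaled by length and library total) in cardiomyocyte replicates 1 to 3, and 22209, 84.9 and 196 TPM in neural replicates 1 to 3. For 5 neuronal markers the sums were 13.0, 3180 and 13.8 TPM in the first group and 14.7, 3618 and 3702 TPM in the second. TNNT2, cardiac troponin T, stood at 5155 TPM in the library labelled neural replicate 1 and at 4.28 TPM in the one labelled cardiomyocyte replicate 2. No library was moved to another group. These 2 were singled out by expression in the same data, so SEs and p-values without them partly follow from that choice. Each comparison that involves the cardiomyocyte or neural group is given with the libraries as labelled and without these 2, which leaves 2 libraries in each of those groups.

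PAX6, the paired-box factor of forebrain and eye progenitors, stood at 0.19, 359.60 and 339.17 TPM in neural replicates 1, 2 and 3 and at 0.27, 254.45 and 0.08 TPM in cardiomyocyte replicates 1, 2 and 3. The high values were thus in neural replicates 2 and 3 and in the library labelled cardiomyocyte replicate 2, and the labelled groups overlapped. Elsewhere in clone 8, PAX6 was at 0.50, 0.37 and 0.19 TPM at day 0, at 0.54, 0.35 and 0.19 TPM in mesendoderm, at 0 in all 3 presomitic libraries, and at 1.25, 0.63 and 0.45 TPM in the somite libraries. The endothelial libraries had 4.87, 1.93 and 2.70 TPM, all above day 0. PAX6 was also present in fibroblasts, at 11.31, 10.66, 8.65 and 4.91 TPM. In the 11 libraries of clones 1 to 3 its highest value was 1.05 TPM, in clone 1 replicate 3. Its mean was 0.36 TPM ± 0.598 in clone 1 (SD, n = 3), 0.015 ± 0.0238 in clone 2 (n = 4) and 0.0325 ± 0.025 in clone 3 (n = 4).

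SOX1, the SOXB1 factor of early neuroepithelium, was listed at 0 in all 4 fibroblast libraries and in all 11 libraries of clones 1 to 3. Clone 8 had reads at day 0, at 1.35, 0.82 and 0.55 TPM, in shallower libraries than those of clones 1 to 3. Line and set of libraries cannot be told apart here. SOX1 was at 0, 42.36 and 38.43 TPM in the neural libraries and at 0.29, 31.39 and 0.07 TPM in the cardiomyocyte libraries, the same split of libraries as for PAX6. The endothelial libraries came next, at 3.54, 2.11 and 1.60 TPM. In mesendoderm, presomitic and somite libraries the highest SOX1 value was 0.34 TPM, in somite replicate 2.

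SIX3, a repressor that specifies the anterior forebrain and the eye field, was at 0.18, 65.17 and 64.84 TPM in the neural libraries and at 0, 37.52 and 0.13 TPM in the cardiomyocyte libraries. At day 0 it was already present, at 2.60, 2.19 and 2.52 TPM. From day 1 to day 6 no library exceeded 0.22 TPM, so that every library of those stages lay below every day 0 library. Clone 2 had 4.40, 4.12, 4.22 and 4.31 TPM, clone 3 had 0.44, 1.26, 0.46 and 0.75 TPM, and clone 1 had 0.94, 0 and 0 TPM. These clones did not overlap, apart from clones 1 and 3. Fibroblasts had 6.58, 5.03, 3.31 and 1.66 TPM.

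LHX2, the LIM homeobox factor of the cortical and eye primordia, was at 0.14, 190.57 and 169.75 TPM in the neural libraries and at 0, 130.48 and 0.28 TPM in the cardiomyocyte libraries. The other values were low, with 4.49, 2.41 and 1.86 TPM at day 0, and 3.52, 1.85 and 1.11 TPM in the endothelial libraries. Mesendoderm had 0.15, 0.16 and 0 TPM, presomitic mesoderm 1.58, 0.83 and 0 TPM, and somite 2.63, 1.66 and 0.68 TPM. The presomitic libraries overlapped both of their neighbours in time. Fibroblasts had 2.98, 4.48, 2.18 and 1.51 TPM. The mean was 0.537 TPM ± 0.930 in clone 1 (SD, n = 3), 0.8225 ± 0.755 in clone 2 (n = 4) and 0.2425 ± 0.0727 in clone 3 (n = 4).

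HES5, the Notch effector, was at 0, 152.68 and 138.84 TPM in the neural libraries and at 0, 140.63 and 0 TPM in the cardiomyocyte libraries. Its day 0 values of 3.78, 3.61 and 2.64 TPM did not overlap those of any later stage up to day 6. Mesendoderm had 0.21, 1.16 and 1.40 TPM, the presomitic libraries were all listed at 0, the somite libraries had 0, 0.34 and 0 TPM, and the endothelial libraries had 1.82, 1.31 and 1.57 TPM. In fibroblasts 1 library of 4 had a read, and in clones 1 to 3 the highest value was 0.73 TPM.

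NEUROG2, the proneural factor, had the widest gap between libraries. It was at 0, 57.23 and 60.40 TPM in the neural libraries and at 0, 44.14 and 0 TPM in the cardiomyocyte libraries. No other library of the series reached 0.5 TPM: the highest was 0.40 TPM in clone 1 replicate 2. It was listed at 0 in all fibroblast, presomitic and somite libraries.

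NES was the only member above 1 TPM in all 36 libraries. It was lowest in fibroblasts, at 8.24, 8.61, 8.26 and 10.96 TPM, and no other library lay below 20.88 TPM. In clone 8 it stood at 81.14, 51.08 and 57.01 TPM at day 0, at 45.94, 20.88 and 30.62 TPM in mesendoderm and at 55.31, 34.48 and 36.63 TPM in presomitic mesoderm. It was higher in all 3 somite libraries, at 190.71, 134.74 and 132.95 TPM. Endothelial libraries had 92.24, 100.26 and 140.90 TPM, and the neural libraries 83.95, 575.36 and 427.04 TPM. The cardiomyocyte libraries had 78.64, 487.85 and 56.32 TPM. Unlike the transcription factors, NES in the library labelled neural replicate 1 was thus well above 0, beside the 78.64 and 56.32 TPM of cardiomyocyte replicates 1 and 3. Clone 1 had 185.36, 179.02 and 180.60 TPM, above clone 2 (120.27, 69.84, 106.60 and 116.33 TPM) and clone 3 (79.78, 80.12, 80.52 and 68.42 TPM), and clones 2 and 3 overlapped.

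**Figure D1:**
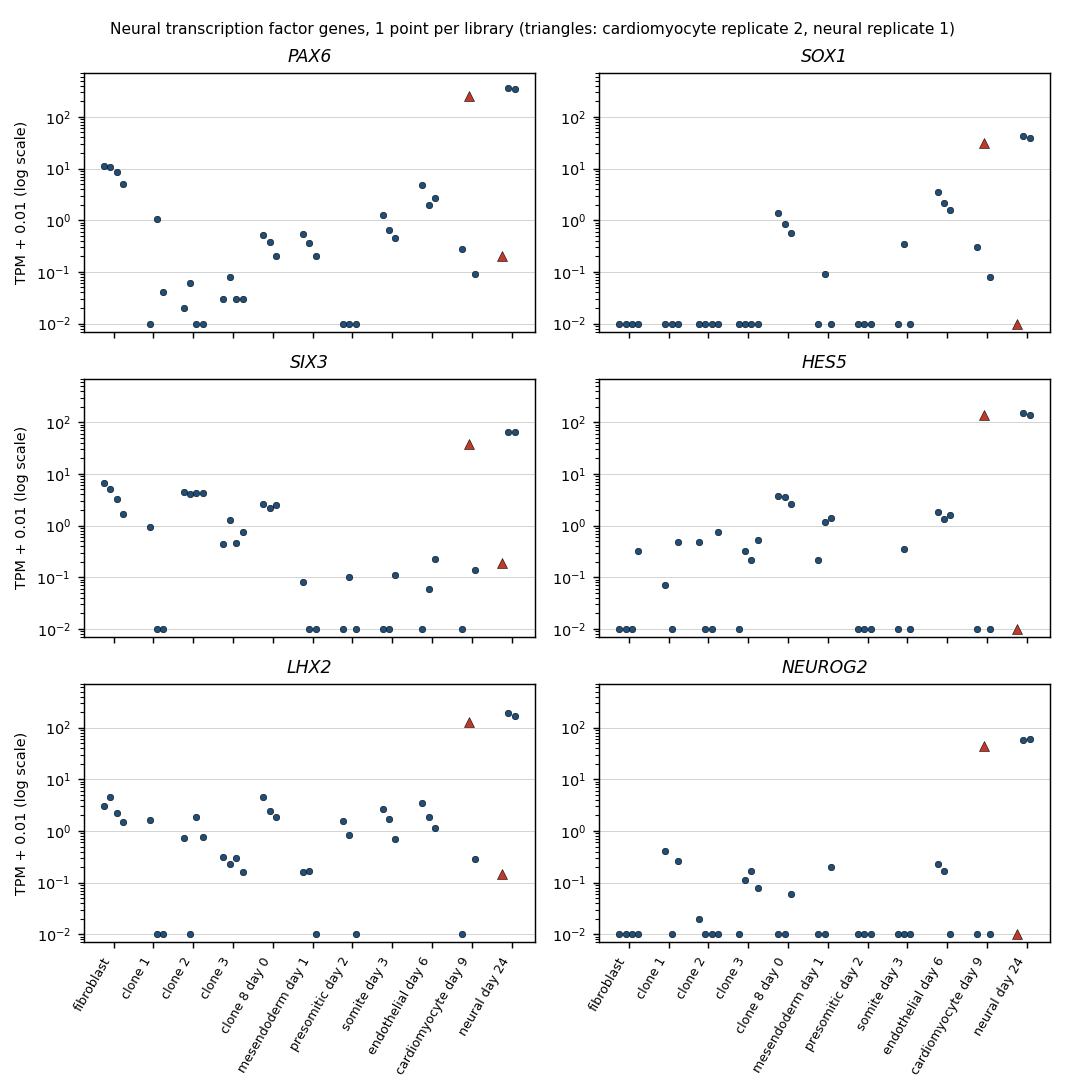
TPM + 0.01 on a log scale (vertical axis) of the 6 transcription factor genes in each of the 36 libraries, by labelled group (horizontal axis); points at the bottom are libraries listed at 0, and triangles are the libraries labelled cardiomyocyte replicate 2 and neural replicate 1. In every panel the highest points are neural replicates 2 and 3 and the triangle of the cardiomyocyte group, and the triangle of the neural group lies at or below 0.19 TPM.

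**Figure D2:**
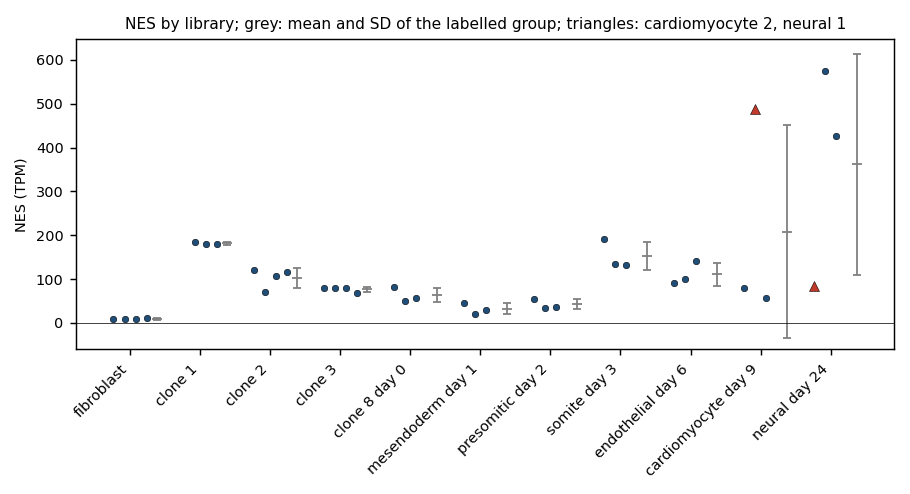
NES in TPM (linear vertical axis) in each of the 36 libraries by labelled group, with the group's mean and SD in grey and triangles for the libraries labelled cardiomyocyte replicate 2 and neural replicate 1. The fibroblast libraries lie at 8.24 to 10.96 TPM, the somite libraries at 132.95 to 190.71 TPM, and neural replicates 2 and 3 at 427.04 and 575.36 TPM.

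For each member the 3 highest clone 8 libraries were the same: neural replicates 2 and 3 and the library labelled cardiomyocyte replicate 2. The lowest of these exceeded the highest of the other 18 clone 8 libraries by 201-fold for NEUROG2, 52.2-fold for PAX6, 36.7-fold for HES5, 29.1-fold for LHX2, 14.4-fold for SIX3 and 8.87-fold for SOX1, but by 2.24-fold for NES. The next library was an endothelial one for PAX6, SOX1 and NEUROG2, a day 0 one for SIX3, HES5 and LHX2, and a somite one for NES. TPM is scaled by transcript length, so levels can be set against each other within a library: PAX6 was at 0.522, 0.625 and 0.794 of the NES level in cardiomyocyte replicate 2 and neural replicates 2 and 3. SOX1 was the lowest of the 7 members in all 3 of these libraries, at 0.0643, 0.0736 and 0.0900 of NES.

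By the mean of the labelled groups, the neural and the cardiomyocyte group came first and second for all 7 members, and these groups overlapped for every member. Below them, the order for PAX6 was fibroblast (8.88 TPM ± 2.88, SD, n = 4), endothelial (3.17 ± 1.53, n = 3) and somite (0.777 ± 0.420, n = 3), with no overlap between fibroblast and endothelial or between endothelial and somite libraries. For SOX1 the endothelial group (2.42 TPM ± 1.01, n = 3) stood clear of day 0 (0.907 ± 0.407, n = 3), and day 0 clear of somite. For SIX3, clone 2 (4.26 TPM ± 0.120, n = 4), fibroblasts (4.15 ± 2.13, n = 4) and day 0 (2.44 ± 0.217, n = 3) each overlapped the next, and day 0 stood clear of clone 3. For HES5, day 0 (3.34 TPM ± 0.615, n = 3) stood clear of the endothelial group (1.57 ± 0.255, n = 3), and all lower neighbours overlapped. For LHX2 and NEUROG2 every pair of neighbours overlapped. For NES the only neighbours that did not overlap were mesendoderm (32.5 TPM ± 12.6, n = 3) and fibroblasts (9.02 ± 1.31, n = 4). Without the 2 libraries that went against their labels, the neural mean was 349 TPM ± 14.4 for PAX6, 180 ± 14.7 for LHX2, 146 ± 9.79 for HES5, 65.0 ± 0.233 for SIX3, 58.8 ± 2.24 for NEUROG2, 40.4 ± 2.78 for SOX1 and 501 ± 105 for NES (SD, n = 2). The cardiomyocyte mean was then 67.5 TPM ± 15.8 for NES and at most 0.180 TPM for the other 6 (n = 2).

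The neural libraries were compared with the undifferentiated line they came from. As labelled, 4 of the 7 members were higher in the neural group at an adjusted p under 0.05, where 42.7% of 14248 tested genes passed in either direction and 23.8% were higher. PAX6 was higher by 8.99 on the log2 scale (SE 2.41, edgeR adjusted p = 0.0080), LHX2 by 4.97 (SE 1.80, adjusted p = 0.035) and NES by 2.22 (SE 0.55, adjusted p = 0.0042). NEUROG2 had 1045 counts against 1, a CPM ratio of 1579 with a 95% exact interval from 283 to 62437 for counting error only (adjusted p = 0.017). The differences for SOX1 (4.49), SIX3 (3.77) and HES5 (4.46) did not pass, with adjusted p from 0.050 to 0.070. Leaving out single libraries left 2 members with each day 0 library out, 3 with neural replicate 2 or 3 out, and 7 with neural replicate 1 out. PAX6 and NES passed each time. In a fit of only these groups NES alone passed: LHX2 had an adjusted p of 0.079, and PAX6 and NEUROG2 fell below the filter on low counts. In the fit of 21 libraries, NEUROG2 reached 10 counts only in neural replicates 2 (810) and 3 (235) and cardiomyocyte replicate 2 (497). Its passing of the filter there, in every comparison as labelled, thus rested partly on a library that went against its label. With no low-count filter NEUROG2 was higher past the threshold here too.

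Without both libraries all 7 members were higher in the neural group, where 63.8% of 14485 tested genes passed and 32.0% were higher. The difference on the log2 scale was 9.58 for PAX6 (SE 0.34, adjusted p = 2.1e-15), 5.56 for LHX2 (SE 0.45), 5.08 for SOX1 (SE 0.47), 5.05 for HES5 (SE 0.39), 4.35 for SIX3 (SE 0.34) and 2.61 for NES (SE 0.24), with the highest adjusted p at 6.9e-09 (SOX1). The NEUROG2 ratio was then 2925 (interval 524 to 115655). Both libraries were left out for their expression in these same data, so the small SEs and p-values partly follow from that choice.

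Against the cardiomyocyte group as labelled, none of the 7 members and none of the 14248 genes passed (0.0%), and 753 genes had an unadjusted edgeR p under 0.05. Of the members none had an unadjusted p under 0.05, and DESeq2 called none of the genes. Leaving out the library labelled cardiomyocyte replicate 2 alone brought all 7 members past the threshold, and leaving out the one labelled neural replicate 1 alone brought none. Without both, all 7 were higher in the neural group, where 63.7% of genes passed and 31.8% were higher. NES was higher by 2.11 (SE 0.27, adjusted p = 5.5e-07) and SOX1 by 7.09 (SE 0.70, adjusted p = 2.3e-08). The other 5 had 0 to 3 counts in the 2 remaining cardiomyocyte libraries: HES5 was at least 296-fold and NEUROG2 at least 473-fold higher in the neural libraries, against a floor of 3 counts over the group. The ratio was 1546 for PAX6 (interval 529 to 7500), 783 for LHX2 (216 to 6476) and 607 for SIX3 (168 to 5019).

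Against endothelial libraries, the derivative with the next highest PAX6 and SOX1, 4 members were higher in the neural group as labelled: SIX3 by 8.08 (SE 2.06, adjusted p = 0.0083), NEUROG2 by 7.97 (SE 2.66), PAX6 by 5.84 (SE 2.02) and LHX2 by 5.46 (SE 1.87), with adjusted p up to 0.043. There 28.5% of genes passed and 14.2% were higher. SIX3 alone passed when neural replicate 2 or 3 or any endothelial library was left out, and all 7 passed without neural replicate 1. In a fit of only these groups none passed. Without both libraries all 7 were higher, from 1.75 for NES (SE 0.24) to 8.62 for SIX3 (SE 0.49), beside 58.6% of genes called and 27.0% higher. In that comparison SOX1 differed by 3.73 (SE 0.44, adjusted p = 3.2e-07).

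For the cardiomyocyte group against the same day 0 libraries, the direction turned with the library that went against its label. As labelled, PAX6 (7.72, SE 2.32), NEUROG2 (497 counts against 1, ratio 730, interval 130 to 28892) and NES (1.68, SE 0.54) were higher in the cardiomyocyte group, with adjusted p from 0.016 to 0.029, where 41.7% of genes passed and 22.9% were higher. None of them passed when day 0 replicate 2 or 3 was left out, and NES alone when day 0 replicate 1 was. In a fit of only these groups none passed either. Without both libraries, 4 members were lower than at day 0, where 61.7% of genes passed and 31.4% were lower. SIX3 had 114 counts at day 0 and 2 in cardiomyocytes, a ratio of 27.6 (interval 7.48 to 231, adjusted p = 9.7e-06), and LHX2 had 62 against 2, a ratio of 15.03 (interval 3.99 to 127, adjusted p = 0.0027). SOX1 fell by 2.01 (SE 0.82, adjusted p = 0.039). HES5, with 50 counts at day 0 and none in cardiomyocytes, was at least 8.08-fold lower (adjusted p = 0.00014). PAX6 had 11 counts against 3, a ratio of 1.78 (interval 0.470 to 9.93), and NES differed by 0.50 (SE 0.24, adjusted p = 0.073). NEUROG2 was at or under the floor of 3 counts in both groups. With only cardiomyocyte replicate 2 left out, 1 member passed.

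**Figure D3:**
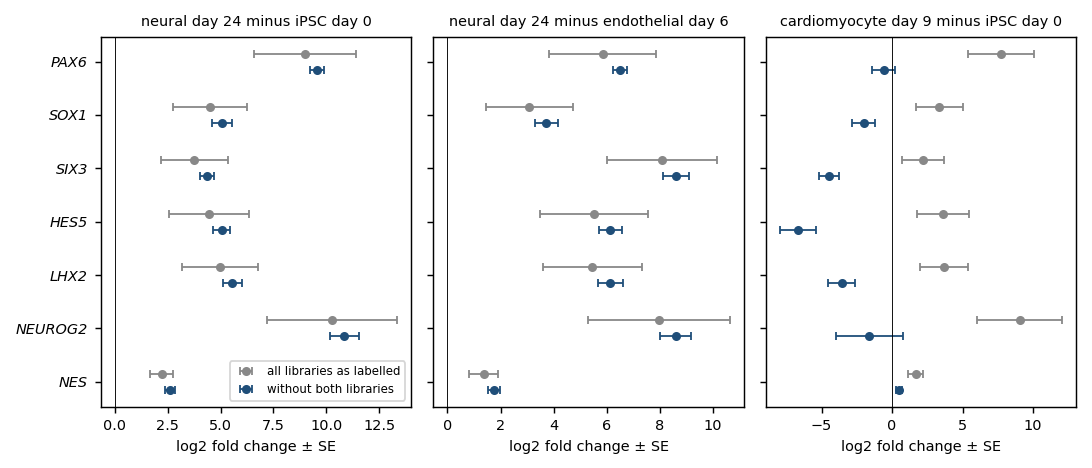
Log2 fold change of the 7 members with its standard error (horizontal axis) in 3 comparisons, with all libraries as labelled in grey and without the libraries labelled cardiomyocyte replicate 2 and neural replicate 1 in blue. The neural differences kept their sign and their standard errors shrank (PAX6 from 2.41 to 0.34 against day 0), while 6 of the 7 cardiomyocyte differences moved from above to below 0 and NES moved from 1.68 to 0.50; the NEUROG2 value below 0 rests on 1 count.

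The earlier stages were fitted over the 15 clone 8 libraries of day 0 to day 6, so that neither doubtful library entered. NEUROG2 did not pass the filter on low counts there. From day 0 to mesendoderm 4 of the 6 tested members were lower, where 40.1% of 13597 genes passed and 20.1% were lower. SIX3 had 114 counts at day 0 and 1 in mesendoderm, a ratio of 102 (95% interval 18.0 to 4075, adjusted p = 2.5e-05). SOX1 had 40 counts against 1 (ratio 35.9, interval 6.08 to 1452) and LHX2 had 62 against 2 (ratio 27.8, interval 7.38 to 235). NES fell by 0.74 (SE 0.22, adjusted p = 0.011), but not past the threshold without day 0 replicate 1 (adjusted p = 0.078) or mesendoderm replicate 2 (adjusted p = 0.072). PAX6 differed by 0.18 (SE 0.73) and HES5 by -1.55 (SE 0.66, adjusted p = 0.072). In a fit over all 21 clone 8 libraries none of the 4 passed.

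From mesendoderm to presomitic mesoderm HES5 went from 13 counts to 0, at least 3.59-fold lower (adjusted p = 0.016), and PAX6 from 10 to 0, at least 2.76-fold lower (adjusted p = 0.020), beside 26.2% of genes called and 13.5% lower. Both calls rest on few counts: HES5 was lost without mesendoderm replicate 3 or presomitic replicate 3, PAX6 without mesendoderm replicate 1 or presomitic replicate 3, and both in a fit of all 21 libraries. Without presomitic replicate 3, LHX2 passed instead (higher by 3.27, SE 1.04, adjusted p = 0.030). In a fit of only these groups HES5 and PAX6 fell below the filter. From presomitic mesoderm to somite NES rose by 1.64 (SE 0.22, adjusted p = 4.5e-06) and PAX6 was at least 5.85-fold higher (15 counts against 0, adjusted p = 0.0017), where 51.2% of genes passed and 26.6% were higher. The PAX6 call was lost in the fit of all 21 libraries (adjusted p = 0.431), and PAX6 fell below the filter in a fit of only these groups. Summed markers moved between the same libraries, from 18.9 to 61.9 TPM up to 1127 to 1380 TPM for 6 smooth and skeletal muscle markers and from 48.6 to 71.03 TPM up to 486 to 726 TPM for 8 fibroblast and mesenchyme markers, and their part in the NES value was not tested. SOX1, SIX3, HES5 and LHX2 did not pass at this step, with adjusted p from 0.15 to 0.97.

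Endothelial libraries at day 6 had a mixed pattern against day 0. PAX6 was higher by 3.10 (SE 0.60, adjusted p = 0.00037) and NES by 0.81 (SE 0.22, adjusted p = 0.0044), while SIX3 fell by 4.34 (SE 0.72, adjusted p = 6.1e-05). There 47.7% of genes passed, 23.7% higher and 24.0% lower. SOX1 (1.34, SE 0.61), HES5 (-1.13, SE 0.63) and LHX2 (-0.56, SE 0.67) did not pass, with adjusted p from 0.081 to 0.51. The 3 calls held without any single library of both groups, 5 members passed in a fit of only those groups, and none passed in the fit of all 21 libraries. All 10 endothelial markers were above 1 TPM in each endothelial library, with summed levels of 682 to 785 TPM against 34.3 to 50.04 TPM at day 0, and 7 or 8 of 9 neural crest and Schwann cell markers were above 1 TPM there, against 2 or 3 at day 0. All 8 fibroblast and mesenchyme markers were too, with sums of 712 to 1121 TPM against 149 to 317 TPM at day 0, and 8 pluripotency markers summed to 517 to 690 TPM against 1866 to 2080 TPM. The part of non-endothelial cells in the PAX6 and NES values was not tested.

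In clones 1 to 3 against fibroblasts, 5 members passed the filter and 4 the test, where 74.6% of 14660 genes passed. NES was higher in the clones by 3.52 (SE 0.17, adjusted p = 4.2e-12, 38.6% of genes higher). PAX6 was lower (fell by 7.44, SE 0.73, adjusted p = 5.0e-08), as were LHX2 (fell by 2.70, SE 0.93, adjusted p = 0.015) and SIX3 (fell by 2.26, SE 0.63, adjusted p = 0.0036), beside 35.9% of genes lower. NEUROG2 did not pass (adjusted p = 0.11). The 4 fibroblast libraries differed among themselves in depth, with 36738189 and 26120236 counts in replicates 1 and 2 and 7508792 and 6877298 in replicates 3 and 4, and PAX6, SIX3 and LHX2 were each higher in both deeper libraries than in both shallower ones. They differed in composition too: replicates 1 and 2 had summed smooth and skeletal muscle markers of 31697 and 33310 TPM and fibroblast and mesenchyme markers of 22566 and 19821 TPM, against 12911 and 14374 TPM and 37587 and 35044 TPM in replicates 3 and 4, and the part of this in the members' levels was not tested. Against fibroblast replicates 3 and 4 alone, 2 members passed, with SIX3 (adjusted p = 0.219) and LHX2 (adjusted p = 0.233) lost. LHX2 was also lost without fibroblast replicate 2 (adjusted p = 0.0647). Without clone 1 replicate 2 the differences were larger, -4.70 for SIX3 and -5.01 for LHX2.

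Between the undifferentiated lines, NES was higher in clone 1 than in clone 2 by 0.99 (SE 0.17, adjusted p = 0.0029) and than in clone 3 by 1.22 (SE 0.18, adjusted p = 0.00065), where 9.31% of genes passed and 4.47% were higher in the first comparison and 6.7% and 3.12% in the second. It differed by 0.24 between clones 2 and 3 (SE 0.16, adjusted p = 0.55), where none of the members passed and 4.22% of genes did. By DESeq2 no member passed there either, and SIX3 and NEUROG2 had an unadjusted edgeR p under 0.05. SIX3 did pass in a fit of only these clones (higher in clone 2 by 2.37, SE 0.30, adjusted p = 0.00013) and by limma (adjusted p from 0.0023 to 0.032). Clone 1 also had more NEUROG2 than clone 2 (42 counts against 1, ratio 103, interval 17.5 to 4166, adjusted p = 0.041) and more PAX6 (38 against 3, ratio 31.1, interval 9.86 to 157, adjusted p = 0.025), and less SIX3 (fell by 3.55, SE 1.02, adjusted p = 0.038, beside 4.84% of genes lower). Only the NES call held without each single library: without clone 1 replicate 3 the PAX6 difference was 0.39 (adjusted p = 0.907), and the SIX3 and NEUROG2 calls were lost without any clone 2 library. The count of members fell from 4 to 1 without clone 2 replicate 1, 3 or 4, and to 2 without clone 2 replicate 2 or clone 1 replicate 3 or 4. Against clone 3 it was 3 without clone 1 replicate 2 and 2 without clone 1 replicate 4. The label of clone 1 differs from those of clones 2 and 3 in the line name and lacks minusA83, which cannot be told apart from the clone.

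Other regional genes of the neural tube were read from lists that name genes of the forebrain, midbrain, hindbrain and spinal cord. Of 18 forebrain and eye field genes, 14, 15 and 14 were at or above 1 TPM in cardiomyocyte replicate 2 and neural replicates 2 and 3, with summed levels of 561, 733 and 716 TPM. Cardiomyocyte replicates 1 and 3 and the library labelled neural replicate 1 had 3, 2 and 1 of them. The day 0 libraries had 7 or 8, with sums of 325 to 330 TPM, and mesendoderm 5 to 7, with sums of 133 to 148 TPM. Most of the day 0 sum was HESX1 (mean 146 TPM) and OTX2 (mean 138 TPM). Among 25 hindbrain and spinal cord genes, including HOX genes, 4, 6 and 5 were at or above 1 TPM in cardiomyocyte replicate 2 and neural replicates 2 and 3. None reached 10 TPM, with sums of 16.4 to 27.1 TPM. Low counts were not particular to these libraries: the labelled cardiomyocyte group ran from 3 to 4, the neural group from 3 to 6 and day 0 from 4 to 5. The endothelial libraries had 23 or 24 of these 25 genes at or above 1 TPM, with sums of 320 to 370 TPM. Of the 18 forebrain genes they had 8 or 9, with sums of 39.4 to 46.7 TPM. High levels of the 25 genes were not particular to them. Presomitic libraries had 15 to 19 at or above 1 TPM (sums of 197 to 287 TPM), and fibroblasts 13 or 14 (111 to 135 TPM).

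Against day 0 and without both libraries, 12 of 17 tested forebrain and eye field genes were higher in the neural group and 5 lower, with a median log2 difference of 4.52 beside 0.0 over all genes, of which 32.0% were higher and 31.8% lower. As labelled, 9 were higher and 5 lower, with a median of 3.94 beside 0.20 and with 23.8% of all genes higher and 19.0% lower. The same shares of all genes apply to the other lists compared between neural and day 0 libraries. TBR1, a factor of postmitotic cortical neurons, was at 99.4 and 100.3 TPM in neural replicates 2 and 3 and at most 0.14 TPM at day 0. EMX2, a dorsal forebrain homeobox gene, stood at 105.6 and 76.0 TPM, and FEZF2, a forebrain zinc finger gene, at 67.0 and 70.5 TPM. DLX1, of ventral forebrain interneuron precursors, was at 76.6 and 71.1 TPM, so that genes of dorsal and ventral forebrain were both present. SIX6, HESX1, VAX1 and OTX2 were among the genes lower than at day 0: HESX1, at 144, 155 and 138 TPM in the day 0 libraries, was at 5.86 and 13.8 TPM, and OTX2, at 140, 125 and 150 TPM, was at 23.2 and 17.0 TPM. The eye field genes RAX and SIX6 were listed at 0 in both neural libraries.

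For the midbrain and isthmus list the count was 4 higher and 3 lower of 12 tested, with a median of -0.43, or 1.03 with genes at 0 in 1 group set to their bound and 1 gene at the floor in both left out. EN1, an engrailed homeobox gene, was at 1.98 and 1.48 TPM in neural replicates 2 and 3. For hindbrain and spinal cord it was 7 higher and 3 lower of 24, with a median of 0.16, or 1.54 on the bounded scale with 13 genes left out. The dorsal neural tube list had 6 higher and 2 lower of 13 (median 1.33), and the ventral list 7 higher and 4 lower of 15 (median 1.199). The midbrain and hindbrain counts of higher genes lie near the 32.0% of all genes. As labelled, these counts were 2 and 2 for midbrain, 5 and 3 for hindbrain, 1 and 1 for dorsal and 3 and 3 for ventral genes.

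Between neural and endothelial libraries the regional lists went opposite ways. Without both libraries, 12 forebrain genes were higher in the neural group and 1 lower of 17 (median 2.96), whereas 21 hindbrain and spinal cord genes were lower and none higher of 24 (median -6.14, or -4.78 with 8 genes at their bound), beside -0.088 over all genes, of which 27.0% were higher and 31.6% lower. As labelled, the counts were 6 and 1 for forebrain and 20 lower and none higher for hindbrain, beside 14.2% and 14.3% of all genes. HOXC8 was at 50.5, 50.2 and 49.4 TPM in the endothelial libraries and at 0.16 and 2.98 TPM in neural replicates 2 and 3. HOXB8 stood at 33.8, 33.3 and 30.3 TPM in the former and at 0.32 and 0 TPM in the latter.

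**Figure D4:**
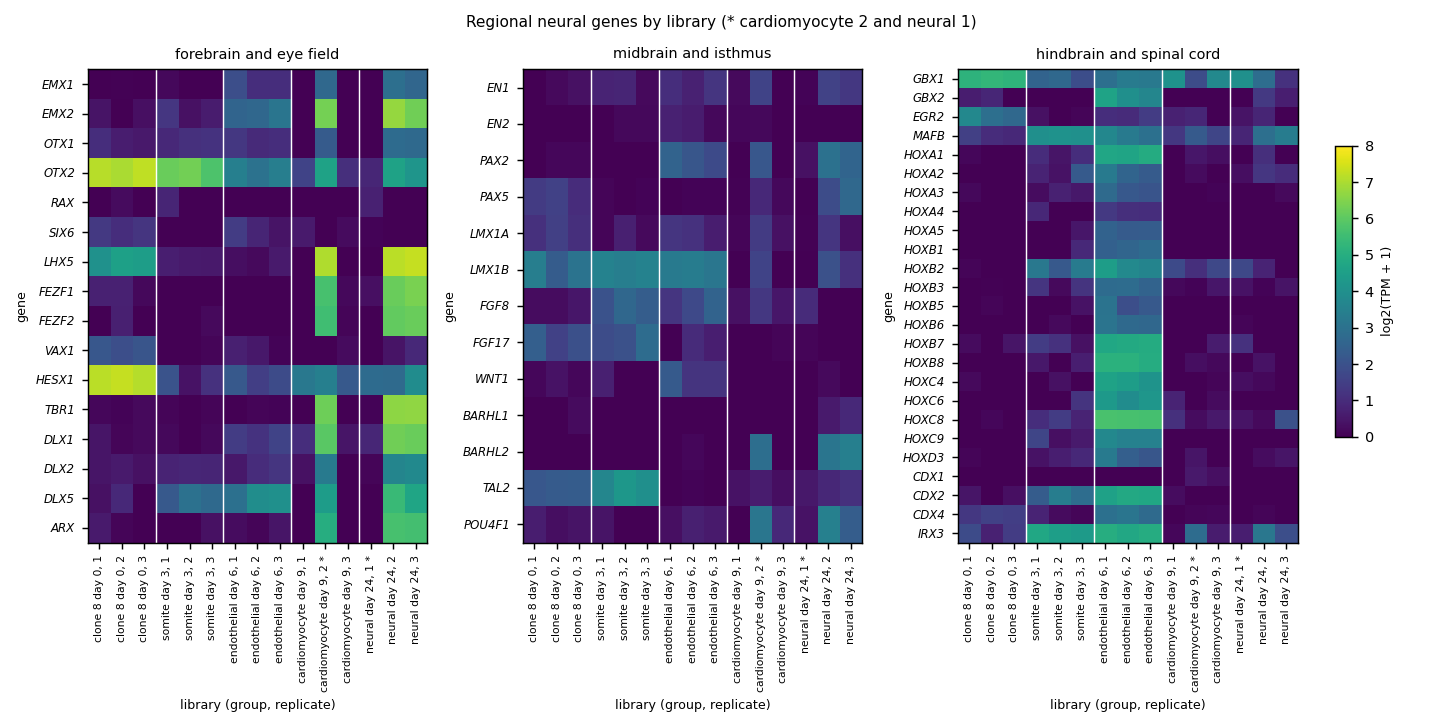
Log2(TPM + 1), by colour, of the forebrain, midbrain and hindbrain or spinal cord genes (rows, some listed genes not drawn) in the day 0, somite, endothelial, cardiomyocyte and neural libraries (columns); asterisks mark the libraries labelled cardiomyocyte replicate 2 and neural replicate 1. Neural replicates 2 and 3 and the asterisked cardiomyocyte library hold 14 or 15 of 18 forebrain genes at or above 1 TPM and 4 to 6 of 25 hindbrain genes, and the endothelial libraries hold 23 or 24 of the latter.

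HES5 and NEUROG2 lie downstream and upstream of Notch signalling. Without both libraries 19 of 24 Notch pathway genes were higher in the neural group than at day 0 and 2 lower, with a median of 1.81, beside 32.0% of all genes higher and 31.8% lower. As labelled 9 were higher and 1 lower, beside 23.8% and 19.0%. Among receptors, NOTCH1 was at 65.8 and 45.1 TPM in neural replicates 2 and 3 and at 13.6, 10.02 and 9.78 TPM at day 0. Among ligands, DLL1 stood at 82.1 and 69.3 TPM, above its 1.75, 1.77 and 1.21 TPM at day 0. NRARP, a feedback gene of the pathway, was at 91.02 and 109.7 TPM. The HES and HEY genes of the list did not move as one: HES6 was at 72.0 and 60.6 TPM and HES4 at 34.0 and 34.1 TPM, both higher than at day 0, while HES1 (4.84 and 8.00 TPM against 39.4, 30.3 and 28.2 TPM) and HEY1 (3.52 and 3.07 TPM against 14.7, 11.8 and 12.9 TPM) were lower. In the endothelial libraries the arterial ligand DLL4 was at 52.5, 39.6 and 29.2 TPM and HEY1 at 120, 85.6 and 71.4 TPM, beside HES5 of 1.31 to 1.82 TPM.

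Of the proneural and early neuron genes, all 22 tested were higher in the neural group than at day 0 without both libraries (median 7.59, or 6.59 with 5 genes at their bound), and 15 as labelled with none lower. NEUROG1, the closest relative of NEUROG2, stood at 3.8 and 2.5 TPM beside the 57.23 and 60.40 TPM of NEUROG2. DCX, of migrating neurons, was at 308 and 293 TPM, and EOMES, of intermediate cortical progenitors, at 49.2 and 44.9 TPM. The neuronal genes thus stood beside the progenitor genes in the same libraries, and whether they came from the same cells was not tested.

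In the SOXB and neural stem cell list, 13 of 16 tested genes were higher and HES1 alone lower without both libraries (median 2.84), and as labelled 10 were higher and 1 lower. Presence of these genes was not particular to the neural libraries. Of 17 with a row, each endothelial library had 16 at or above 1 TPM (sums of 1171 to 1472 TPM), and the labelled neural group 10 to 16 (1530 to 6917 TPM). FABP7, the radial glial fatty acid binding protein, was at 3693 and 3164 TPM in neural replicates 2 and 3, and SOX3, a relative of SOX1, at 93.7 and 78.2 TPM. SOX2, which pluripotent and neural cells both use, was at 241 and 275 TPM and at 175, 171 and 176 TPM at day 0. Of 28 genes related to the members by gene family (homeobox, paired-box and intermediate filament genes), 12 of 22 tested were higher and 5 lower (median 1.68, or 1.93 with 2 genes at their bound), and as labelled 7 of 21 were higher and 5 lower. SIX6 and SIX4 were lower where SIX3 was higher. INA, a neuronal filament, was at 445 and 358 TPM and at most 1.49 TPM at day 0. VIM, vimentin, which assembles with nestin, was at 1134 and 836 TPM against 323, 265 and 261 TPM at day 0. High VIM was not particular to these libraries: the library labelled neural replicate 1 lay between their values. Endothelial libraries had 820 to 971 TPM and fibroblasts 2934 to 3526 TPM.

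**Figure D5:**
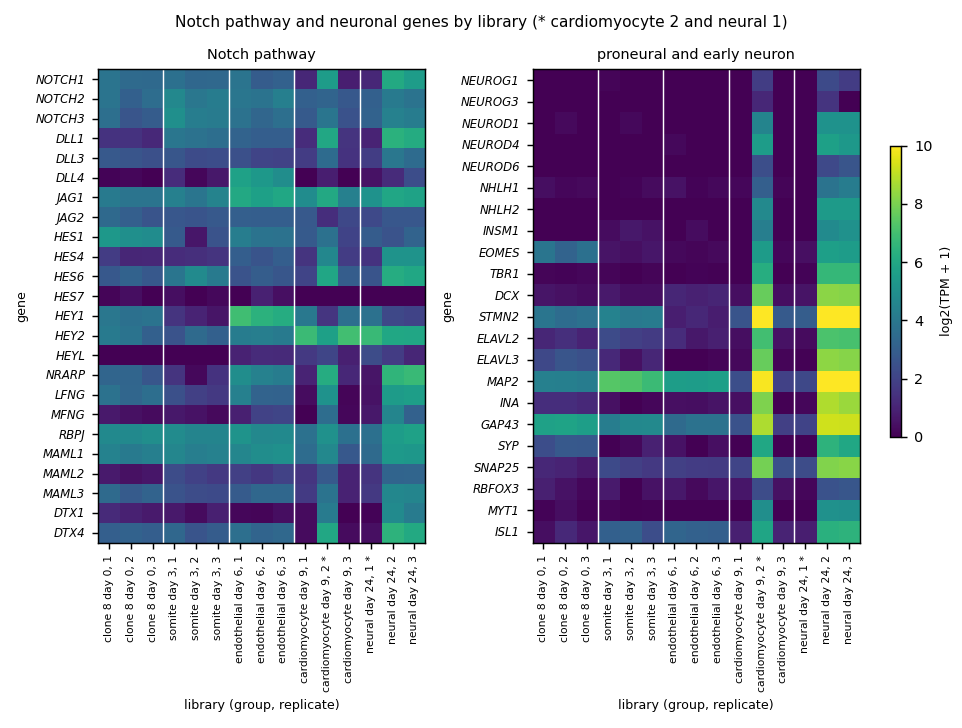
Log2(TPM + 1), by colour, of Notch pathway and neuronal genes (rows, some listed genes not drawn) in the day 0, somite, endothelial, cardiomyocyte and neural libraries (columns); asterisks mark the libraries labelled cardiomyocyte replicate 2 and neural replicate 1, and the brightest colour stands for 10 or more. DLL1, NRARP, HES4 and HES6 are bright in neural replicates 2 and 3 and in the asterisked cardiomyocyte library, and HEY1 is brightest in the endothelial libraries (71.4 to 120 TPM).

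Markers of other cells were summed in neural replicates 2 and 3. The levels were 8.87 and 8.27 TPM for 10 endothelial markers, 8.13 and 14.99 TPM for 8 pluripotency markers, 43.7 and 42.1 TPM for 8 fibroblast and mesenchyme markers, 10.2 and 8.47 TPM for 5 retinal pigment epithelium markers and 23.8 and 17.9 TPM for 5 choroid plexus markers. For 9 neural crest and Schwann cell markers the sums were 76.8 and 67.6 TPM, with 5 and 6 at or above 1 TPM. For 8 astrocyte and oligodendrocyte markers they were 207 and 174 TPM, with 5 in each, against 5.42 to 8.45 TPM at day 0, and S100B (144.6 and 120.03 TPM) held most of it. For 9 presomitic and somite markers they were 82.6 and 82.3 TPM against 11.9 to 17.1 TPM at day 0, most of it UNCX at 73.65 and 74.03 TPM. For 6 smooth and skeletal muscle markers they were 32.4 and 120.7 TPM against 30.2 to 41.7 TPM. The part of these cells in the members' levels was not tested.

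Across the 21 clone 8 libraries, the 6 transcription factors followed each other with Pearson correlations of log2(TPM + 1) from 0.919 (PAX6 and SIX3) to 0.978 (PAX6 and SOX1), and NES followed them less closely, from 0.738 (HES5) to 0.850 (PAX6). The 21 libraries share a clone and their order is set by 3 libraries, so these values only describe the table. Among 10840 genes that reached 10 TPM in some clone 8 library, the pattern most like that of PAX6 was that of UNCX (0.993), and MYO16 (0.991) was also among its nearest 3. For SOX1 the nearest were KCNK10 (0.989) and CDH8 (0.986). SIX3 was nearest to SCG2 (0.995), ELAVL3 (0.991) and ADGRB3 (0.990), and HES5 to TMEM130 (0.990), SCG3 (0.987) and GPM6A (0.986). LHX2 was nearest to SCUBE1 (0.983), CCDC184 (0.981) and CELSR2 (0.979). NEUROG2 had the closest neighbours, CLVS1 (0.999), TBR1 (0.999) and NHLH2 (0.998), and NES the most distant, KIDINS220 (0.972), TRIM2 (0.969) and DLGAP4 (0.967).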

How the data were processed

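Bulk RNA-seq libraries were made by ligation-mediated sequencing from total RNA, per the labels' protocols. The authors deposited expected counts and TPM per gene; bcl2fastq, Bowtie 1.2.3, RSEM 1.2.3 and the Sscrofa11.1 build are named in the submitters' processing notes, without settings. TPM describe levels. Expected counts were rounded (a mean relative change of 0.00661%) and tested with edgeR 4.0.16 in R 4.3.3: TMM scaling, filterByExpr with a minimum count of 10, the quasi-likelihood test and Benjamini-Hochberg adjustment over all genes tested, with a threshold of 0.05. An SE is the log2 fold change over the square root of F. Comparisons with the cardiomyocyte or neural group used 1 fit of 21 clone 8 libraries, earlier stages a fit of 15, and fibroblasts and clones 1 to 3 a fit of 15. All 7 members passed the filter in the first fit, 6 in the second and 5 in the third. Where a group had 0 to 3 counts for a member, CPM of the pooled counts were compared with an exact conditional interval (95%) or a floor of 3 counts over the group; both cover counting error only. DESeq2 1.42.0, limma 3.58.1 on log2(TPM + 1) or log2(TPM + 0.1), other scaling, no filter, a replicate block and left-out libraries were alternatives. The test was also run on simulated counts, drawn around 1 expression profile for all libraries with changes put into some genes. Its outcome is not given here, and it does not cover libraries that go against their labels. The members and lists were chosen with earlier results of these data known. Named genes are the 7 members, listed genes that a sentence on region or pathway needs, and the 3 genes most like each member; a few of these are not reported here, though counts over lists include them. 10 listed genes had no row under their symbol. Counting by strand is not given in the sources used here, and reads of overlapping or near-identical genes may be split. Sequences of the members were not used here.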

Additional observations from a re-analysis of the deposited data

Results flagged for a closer look

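Of 17 pairs of a member and a group of 4 libraries with any spread, 5 had a library far from the others of its group. Chance flags about 1 in 20 groups of continuous values, a rate that holds for 2 of the 5 at most, since the other 3 rest on tied low counts. NES in fibroblast replicate 4 was 10.96 TPM, beside 8.24 to 8.61 TPM in the other 3, and NES in clone 3 replicate 4 was 68.42 TPM, beside 79.78 to 80.52 TPM. PAX6 in clone 3 replicate 2 was 0.07 TPM, from 3 counts, beside 0.02 TPM from 1 count in each of the other 3. HES5 in fibroblast replicate 4 was 0.31 TPM and NEUROG2 in clone 2 replicate 1 was 0.01 TPM, and each of these rests on 1 count, with the other 3 libraries of the group listed at 0. The groups of 3, which hold both libraries that go against their labels, were too small for this check.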

How the results depend on the processing

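The libraries labelled cardiomyocyte replicate 2 and neural replicate 1 moved the neural and cardiomyocyte counts. Numbers of genes past the threshold are given for neural against day 0, cardiomyocyte and endothelial libraries and for cardiomyocyte against day 0, in that order, and were 6087, 0, 4055 and 5940 as labelled. Without both libraries they were 9236, 9226, 8490 and 8934 (edgeR). With alternatives chosen after seeing the data, also without both libraries, they were 9189, 9230, 8517 and 8966 with RLE scaling; 9162, 8426 and 8978 with DESeq2 in the last 3; and 9677, 9927 and 9109 with limma in the first 3. Of the members, 4, 0 and 4 passed as labelled in the 3 neural comparisons and 7 in each without both libraries by edgeR, RLE scaling and limma, as by DESeq2 in the first and second. Cardiomyocyte against day 0 reversed without both libraries: in the order PAX6, SOX1, SIX3, HES5, LHX2 and NEUROG2 the log2 differences were -0.60, -2.01, -4.46, -6.68, -3.58 and -1.60 by edgeR, -0.58, -1.99, -4.44, -6.68, -3.57 and -1.60 with RLE scaling, -0.61, -2.04, -4.58, -5.82, -3.70 and -0.28 by DESeq2, and -0.59, -1.99, -4.48, -6.68, -3.59 and -1.60 without cardiomyocyte replicate 2 alone. Leaving out single libraries gave at most 8.24, 3.87, 2.69, 4.12, 4.22 and 10.58 in that order. By limma on log2(TPM + 1) without both they were -1.69 (SIX3), -2.11 (HES5) and -1.74 (LHX2), and by limma on log2(TPM + 0.1) with all libraries -1.41, -1.60 and -0.73. For the other moves the cause was not tested.

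In a fit of only the groups compared, genes called were 3476 (neural against day 0), 1231 (neural against endothelial), 3764 (cardiomyocyte against day 0), 2165 (presomitic against mesendoderm) and 2561 (clone 2 against clone 3), and members called were 1, 0, 0, 0 and 1, with 5 for endothelial against day 0, 1 for somite against presomitic and 1 for clone 1 against clone 2. In the fit of all 21 clone 8 libraries, endothelial and mesendoderm against day 0, presomitic against mesendoderm and somite against presomitic had 2752, 1808, 1053 and 3374 genes (6486, 5450, 3560 and 6957 in the fit of 15) and 0, 0, 0 and 1 members. DESeq2 called 2247, 1877 and 1243 genes for clone 1 against 2, 1 against 3 and 2 against 3 (edgeR 1365, 982 and 618), and 2 members for clone 1 against 3. Against fibroblast replicates 3 and 4 alone, 2 members passed.

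By limma on log2(TPM + 1), members called were 2 for neural against endothelial, 0 for cardiomyocyte against day 0, 5 for endothelial against day 0, 0 for presomitic against mesendoderm, 1 for somite against presomitic, 2 for clone 1 against 2, and 1 for clone 2 against 3, where 1100 genes passed. With 0.1 in place of 1 they were 1, 0, 0, 1, 2 and 1, endothelial against day 0 left out. With no filter they were 1, 0, 5, 1, 2 and 1, somite against presomitic left out, with 1041 genes for clone 2 against 3 and 1 gene for neural against cardiomyocyte.

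Leaving out 1 library at a time gave 4663 to 7519 genes and 2 to 7 members for neural against day 0, 0 to 3883 and 0 to 7 for neural against cardiomyocyte, 2533 to 6493 and 1 to 7 for neural against endothelial, and 4477 to 6885 and 0 to 4 for cardiomyocyte against day 0. For endothelial against day 0 it gave 5433 to 5902 genes and 3 members, for mesendoderm 4287 to 6499 and 3 to 4, for presomitic against mesendoderm 2774 to 3858 and 1 to 2 (LHX2 alone without presomitic replicate 3), and for somite against presomitic 5996 to 7049 and 2. For the clones against fibroblasts it gave 10371 to 11196 genes and 3 to 4 members, for clone 1 against 2 643 to 1757 and 1 to 3, for clone 1 against 3 435 to 1332 and 1 to 3, and for clone 2 against 3 330 to 549 and 0. Over 48 results on single members, 812 alternatives in which the member was tested were compared. Of these, 601 were counted as keeping direction and side of the threshold, 110 lost the call, 71 gained it and 30 reversed. The reversed ones were all in cardiomyocyte against day 0. The 601 include fits with no adjusted p, counted by direction alone. Fits in which a member fell below the filter were left out, so the 110 miss calls lost in that way. DESeq2 gave no adjusted p for PAX6 with the libraries as labelled in the 4 comparisons with neural or cardiomyocyte libraries.

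Replicate numbers were not shown to pair the samples. In no comparison was every same-numbered correlation of deviations over 0.1: for neural and cardiomyocyte libraries they were 0.84, 0.87 and -0.74. In no comparison did every sample correlate best with its own number. With the replicate block, 5728 genes and 4 members passed for neural against day 0, members fell from 4 to 2 for neural against endothelial and for clone 1 against clone 2, and no other count of members or genes moved by over 1.5 times. Depth limits the low members: one with 0 to 3 counts in a group is not shown to be absent there, and the shallowest library, neural replicate 3, held 1845333 counts.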
